A study of Homo sapiens with 24 samples.

Results

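The BCL2 family apoptosis regulators were followed as 10 genes on 24 two-colour expression arrays of human cancer cell lines. The genes were BCL2, BCL2L1, MCL1, BCL2L11, BBC3, PMAIP1, BID, BIK, BAX and BAK1, taken by the gene name printed in the scanner output. They held 15 probes on each of the array designs used, among 19691 named genes on the design of 16 arrays and 20311 on the design of 8 arrays. Each array compared treated RNA, labelled with Cy5, with control RNA of the same cell line, labelled with Cy3, and no dye swap was made. The lines were PC3, DU145 and LNCap (prostate cancer), A498 and 786O (renal cell carcinoma), and FaDu and SAS (head and neck squamous cell carcinoma). On the first design, PC3 and DU145 were treated with genistein, a soy isoflavone, against control cells that the labels call non treatment and the study's methods call vehicle treated. SAS and FaDu were treated with wogonin, a plant flavone, against DMSO. miR-145 was transfected into PC3, DU145 and LNCap, miR-375 into FaDu, miR-23b, miR-24 and miR-27b into PC3 and miR-29a into SAS, each against a control miRNA. si-CAV2 in A498 and 786O and si-LAMB3 in FaDu and SAS were set against a control siRNA. The second design held miR-143 and si-GOLM1 in DU145 and PC3, miR-27b in 786O and A498, and CXCL10, a chemokine, on 786O at 12 h and 24 h against cells with no treatment. There was 1 array for each line and treatment, so cell lines stand in for replicates and p-values measure the spread between lines, not between cultures. In such bulk RNA, fewer cells holding a transcript and less of it per cell cannot be told apart.

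The BCL2 family decides whether mitochondria release cytochrome c into the cytosol. BAX and BAK1 are the effectors that open the outer mitochondrial membrane, and BCL2, BCL2L1 (BCL-xL) and MCL1 hold them in check. The BH3-only proteins BCL2L11 (BIM), BBC3 (PUMA), PMAIP1 (NOXA), BID and BIK sense stress and either bind the guardians or activate the effectors. BBC3 and PMAIP1 are controlled largely by transcription, and both are known to be induced under endoplasmic reticulum stress.

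The labels give the transfected miRNAs by name without the arm. The mature sequences of the arm usually meant by each name, from RefSeq on GRCh38.p14, are shown because each is the agent of an array described below. Capitals mark the seed, bases 2 to 8.
hsa-miR-145-5p: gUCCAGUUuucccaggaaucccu
hsa-miR-24-3p: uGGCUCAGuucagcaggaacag
hsa-miR-29a-3p: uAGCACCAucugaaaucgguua
hsa-miR-23b-3p: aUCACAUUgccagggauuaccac
hsa-miR-27b-3p: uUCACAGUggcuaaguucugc
hsa-miR-375-3p: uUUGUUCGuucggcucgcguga
hsa-miR-143-3p: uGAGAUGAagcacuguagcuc
No seed was shared in full between these miRNAs, though those of miR-23b (UCACAUU) and miR-27b (UCACAGU) are close. The miR-145 sequence lies on the plus strand at chr5:149430661-149430683. The miR-24 sequence is encoded on chromosome 9, at chr9:95086064-95086085, and again on chromosome 19. None of the 15 probes of the 10 genes, on either design, held the 7-letter complement of any of these seeds in its own sequence, where 0.0472% to 1.01% of all named probes did, which says nothing of the rest of the transcripts.

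The BH3-only genes PMAIP1 and BBC3 changed on the most arrays with measurable signal in both channels. miR-145 raised both of them in PC3, DU145 and LNCap, PMAIP1 by 2.22-fold to 17.4-fold and BBC3 by 3.31-fold to 17.8-fold, and the mean over the 3 lines passed the test for each. BIK fell with wogonin in both squamous lines. BCL2L1 and BID each passed the limit on 1 array, that of miR-24. si-CAV2 and CXCL10 moved none of the 10 genes past the limit.

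A gene was called on an array where its log2 ratio of treated over control was at or past 1 in either direction, which is a 2-fold change, with a probe that the software marked as well above background in Cy5, in Cy3 or in both. Of 240 values, 237 could be read, and 34 were called, 23 higher and 11 lower. That was 14.3% of the values read, beside 8.61% over all named genes. Both shares pool arrays that differed strongly, so the share of all genes called is given for each array. Genistein changed 16.3% of all genes past the limit in PC3 and 11.3% in DU145, with 2 and 3 of the 10 among them. With miR-145 it was 14.3% in PC3, 4.96% in DU145 and 9.13% in LNCap, where 4 of 10, 2 of 9 and 3 of 10 were called. With wogonin it was 13% in SAS and 8.56% in FaDu, and 3 of the 10 were called in each. In PC3 it was 11% with miR-23b, 28.3% with miR-24 and 13.6% with miR-27b, where 3, 4 and 1 of the 10 were called. It was 23.9% for miR-375 in FaDu and 8.93% for miR-29a in SAS, where 1 of the 10 was called on each. With si-LAMB3 it was 9.37% in FaDu, with 0 called, and 14.3% in SAS, with 1 called. With miR-143 it was 2.51% in DU145, with 1 called, and 1.96% in PC3, with 0. With si-GOLM1 it was 1.1% in DU145 and 2.68% in PC3, and 1 was called in each. The arrays with 0 of the 10 called also included si-CAV2 in A498 and 786O, where 2.05% and 1.92% of all genes were called. The remaining ones were miR-27b in 786O and A498, with 2.7% and 2.5%, and CXCL10 at 12 h and 24 h, with 1.83% and 1.9%. On the 3 miR-145 arrays BBC3 and PMAIP1 were called in every line, with MCL1 also called in PC3 and LNCap and BCL2L11 in PC3.

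**Figure D1:**
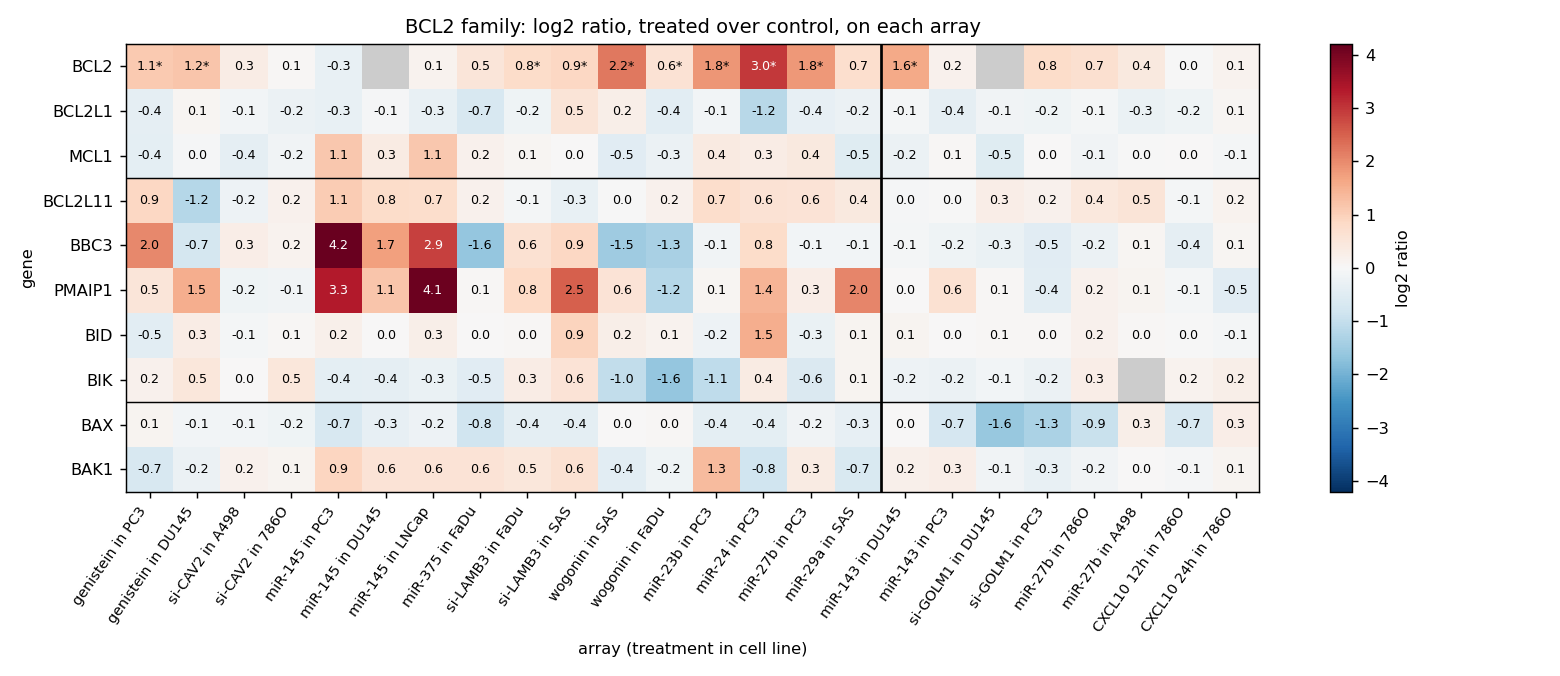
Log2 ratio of treated over control for the 10 genes (rows, by role) on the 24 arrays (columns, by treatment and line), read by the brightest probe. The colour scale is in log2 units, and BBC3 and PMAIP1 reach 4.16 and 4.12 under miR-145 while the si-CAV2 and CXCL10 columns stay within 1 of 0.

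The depth of the arrays limits these values. Between 53.2% and 67.6% of spots were well above background in Cy3 on an array, and no spot of the 10 genes was saturated. The error that the scanner software gives for a log2 ratio had a median of 0.20 to 0.21 for 9 of the genes, and of 0.32 for BCL2. The small interfering RNAs lowered their targets, with log2 ratios of -3.80 and -3.20 for CAV2, -3.02 and -4.15 for GOLM1, and -2.50 in FaDu and -0.89 in SAS for LAMB3. The LAMB3 value in SAS lay inside the range of the other 22 arrays, -2.11 to 4.21. Of 6 luminal prostate markers, 6 were above background in LNCap but 2 in PC3 and 4 in DU145 on the first design, where A498 and 786O had 3 each. On the second design PC3 and DU145 had 3 and A498 had 5, so these markers did not set PC3 and DU145 apart from the renal lines. The squamous markers were 6 of 6 in FaDu and 5 of 6 in SAS, and 1 to 3 of 6 in the other lines. The renal markers were 6 of 6 in A498 and 5 of 6 in 786O. In the other lines they were 2 to 4 of 6, the 4 in PC3 on the second design. KRT6A, a squamous marker, was above background in PC3 on the second design but not on the first. Markers of blood and stroma were 1 to 3 of 5 in every line.

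Among the guardians, BCL2 was called higher on 7 arrays, but its control signal was not well above background on any of the 7. Its log2 ratio was 1.11 and 1.15 with genistein in PC3 and DU145. With miR-23b, miR-24 and miR-27b in PC3 it was 1.84, 2.96 and 1.82. It was 2.23 with wogonin in SAS and 1.58 with miR-143 in DU145. In these arrays the treated channel was bright enough to read and the control channel was not, so only a bound on the fold can be given. With background subtracted by the software, the bound for the rise of BCL2 was 4.97-fold with miR-24 and 3.24-fold with wogonin in SAS. It was 2.97-fold with miR-143 in DU145 and 2.16-fold with genistein in PC3. The bounds were 1.91-fold with genistein in DU145, 1.77-fold with miR-23b and 1.61-fold with miR-27b in PC3. Each bound set the treated signal against the higher of the dimmest measurable signal on the array and the control probe's own. The labels do not say whether the 3 PC3 arrays of miR-23b, miR-24 and miR-27b shared their control RNA. When background was not subtracted, all 7 log2 ratios came out under 1, from 0.25 to 0.79, and with the normexp correction from 0.15 to 0.61. The bounds thus rest on the software's background subtraction and are not lower limits under other processing. A second BCL2 probe gave 2.46 with miR-24, 1.27 with miR-27b in PC3, 2.57 with wogonin in SAS and 1.84 with genistein in PC3. With miR-23b in PC3, and with genistein and miR-143 in DU145, both channels of this probe were too dim to read. Over the cell lines, the BCL2 mean was 1.43 with wogonin (SE 0.37, n = 2, adjusted p = 0.0927 by limma) and 1.13 with genistein (adjusted p = 0.1 by limma). On the 12 arrays where both channels were above background, BCL2 was not called once.

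BCL2L1, which encodes BCL-xL, was called on 1 of 24 arrays. Its log2 ratio ran from -1.17 to 0.55 with a median of -0.18. The lowest value belonged to miR-24 in PC3, a 2.25-fold lower level, and the highest to si-LAMB3 in SAS. The miR-24 value stood apart from the next lowest, -0.69 with miR-375 in FaDu.

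MCL1, a short-lived guardian, was raised by miR-145. Its log2 ratio was 1.13 in PC3, 0.35 in DU145 and 1.12 in LNCap, which is 2.18-fold and 2.17-fold in PC3 and LNCap. The value in DU145 fell short of the limit, and within the 3 prostate lines it was the lowest. The mean of 0.86 (SE 0.17, n = 3) passed limma's moderated test with an adjusted p of 0.0272. On the 21 arrays of the other treatments MCL1 stayed under the limit, with the lowest value, -0.52, for miR-29a in SAS.

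Among the BH3-only genes, BBC3 had the widest range, from -1.63 to 4.16 with a median of -0.11 over 24 arrays. Its probe lies on chromosome 19 and the signal was above background in both channels on every array. With miR-145 the log2 ratio was 4.16 in PC3, 1.73 in DU145 and 2.87 in LNCap, or 17.8-fold, 3.31-fold and 7.29-fold. All 3 lines moved up, PC3 the most and DU145 the least. The level in PC3 went from -0.86 to 3.29 and in LNCap from 1.14 to 4.00, in log2 units against the 75th percentile of the array. The mean log2 ratio was 2.92 (SE 0.54, n = 3), a 7.55-fold rise, with an adjusted p of 0.0222 by limma. Without the PC3 array the adjusted p was 0.154 and without the LNCap array 0.0793. BBC3 was 3.1-fold lower with miR-375 in FaDu, 2.81-fold lower with wogonin in SAS and 2.55-fold lower with wogonin in FaDu. The mean over the wogonin arrays, -1.42 (SE 0.66, n = 2), did not pass limma's test, with an adjusted p of 0.275.

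BBC3 went in opposite directions with genistein in the prostate lines. In PC3 it rose 4.07-fold, a log2 ratio of 2.03, and the DU145 array gave -0.73. The control levels of those arrays lay far apart, at -1.50 in PC3 and 1.12 in DU145, while the treated levels were 0.53 and 0.39. The DU145 control of the genistein array, untreated by the labels and given vehicle by the methods, also stood above the DU145 control of the miR-145 array, which read -1.12. The part of the control level in the opposite ratios was not tested. The mean over the 2 lines was 0.65 (SE 0.66), with an adjusted p of 0.577 by limma.

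PMAIP1 was called on 8 arrays, 7 times higher and 1 time lower. With miR-145 its log2 ratio was 3.33 in PC3, 1.15 in DU145 and 4.12 in LNCap, or 10.1-fold, 2.22-fold and 17.4-fold. DU145 was again the lowest of the 3 lines, while LNCap and not PC3 was the highest. The level in LNCap went from 0.03 to 4.15 against the 75th percentile. The mean of 2.87 (SE 0.59, n = 3), a 7.3-fold rise, had an adjusted p of 0.0314 by limma, which was 0.217 without PC3 and 0.126 without LNCap. No dye swap was made, and with the mean of the probe over other treatments subtracted, the DU145 value was 0.51, under the limit, and the adjusted p of the mean was 0.0494. With no filter on low signal, which adds genes to the adjustment, it was 0.0529. PMAIP1 was also higher with si-LAMB3 in SAS (2.51, 5.72-fold), miR-29a in SAS (2.05, 4.14-fold), genistein in DU145 (1.51, 2.86-fold) and miR-24 in PC3 (1.41, 2.66-fold). After the same subtraction the values for genistein in DU145 and miR-24 in PC3 were 0.45 and 0.38, both under the limit. It was lower with wogonin in FaDu (-1.20, 2.31-fold lower) and 0.58 in SAS. With si-LAMB3 the FaDu array gave 0.84, and the mean over both squamous lines was 1.68 (SE 0.72, n = 2, adjusted p = 0.189 by limma). Of the 8 arrays called for PMAIP1, BBC3 was called in the same direction on 4, the 3 of miR-145 and that of wogonin in FaDu.

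**Figure D2:**
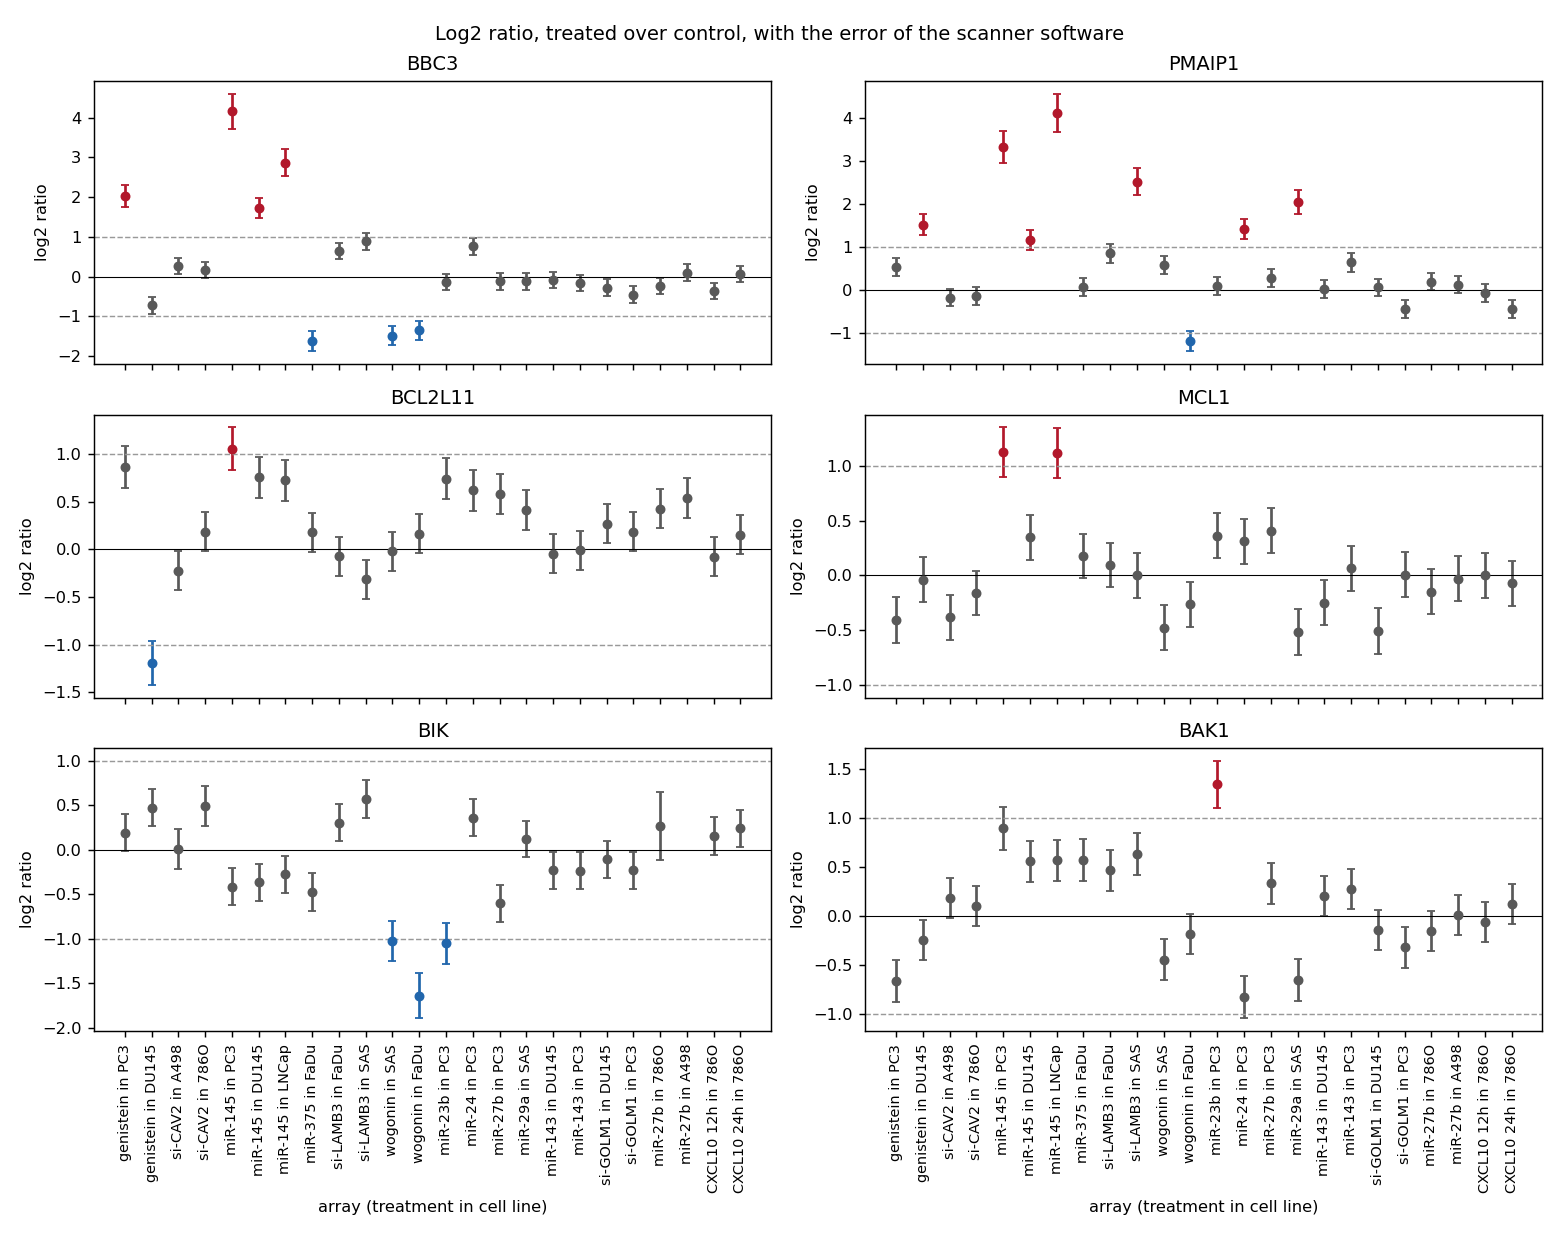
Log2 ratio of treated over control on each of the 24 arrays for 6 genes, with bars for the error given by the scanner software; red and blue points are at or past 1 (dashed lines). BBC3 and PMAIP1 are both past 1 in all 3 miR-145 arrays, while BIK is past -1 in both wogonin arrays and with miR-23b in PC3.

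BCL2L11, the gene of BIM, was called in both directions. Genistein gave a log2 ratio of 0.87 in PC3 but lowered it 2.28-fold in DU145, at -1.19. As for BBC3, the control level in DU145 was the higher, 1.34 against -0.42 in PC3, and the treated levels were 0.15 and 0.45. The DU145 control of the miR-145 array read -0.54. The 3 probes of BCL2L11 all gave a lower value in DU145, -1.19, -0.84 and -0.68, but in PC3 they gave 0.87, 0.31 and -0.54. The rise in PC3 was therefore not seen by every probe. With miR-145 the brightest probe gave 1.05, 0.76 and 0.72 in PC3, DU145 and LNCap, and the mean of 0.84 (SE 0.32, n = 3) did not pass limma's test (adjusted p = 0.157). The second probe gave 0.66, 0.18 and 0.66, and the third 0.50, 0.17 and 0.11. All 9 values were above 0, but they are 3 probes read on the same 3 arrays and not 9 replicates.

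**Figure D3:**
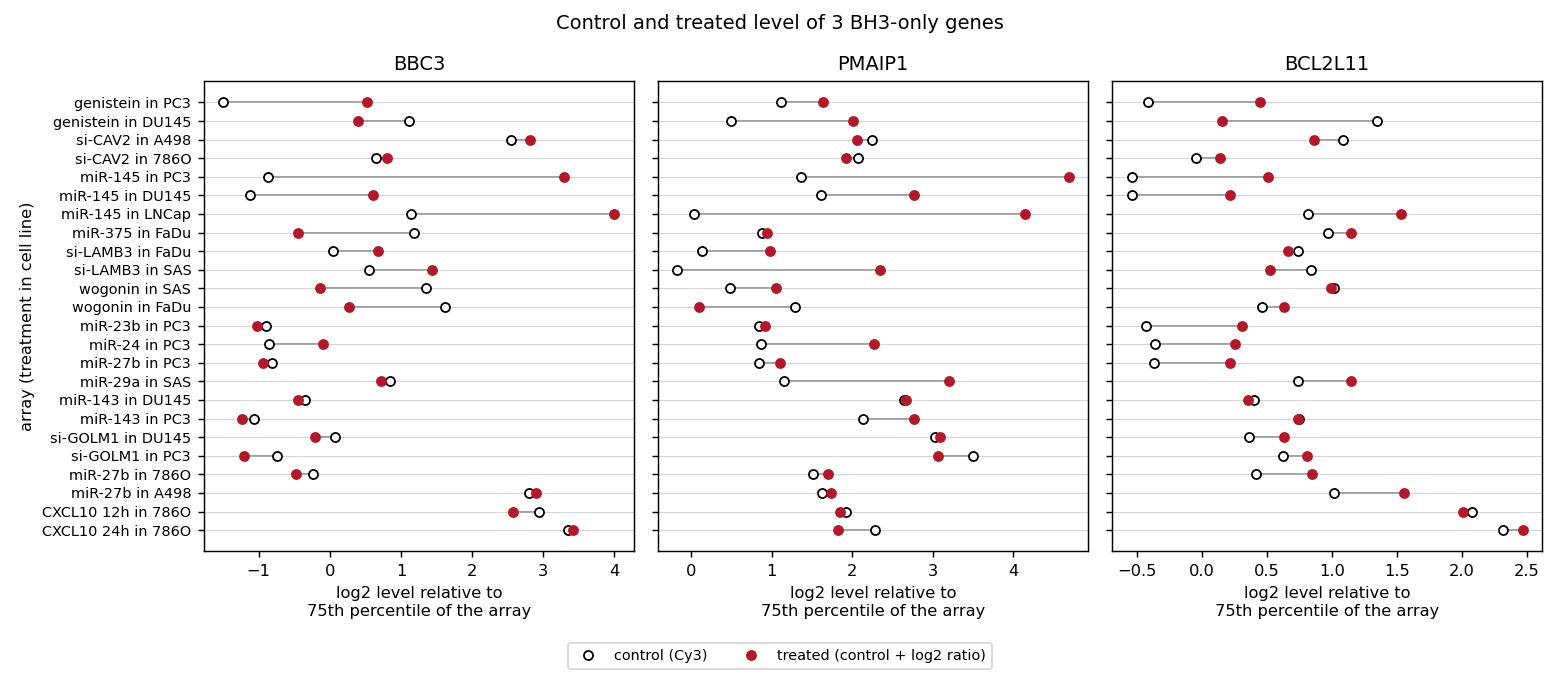
Control (Cy3, open) and treated (control plus log2 ratio, filled) level of BBC3, PMAIP1 and BCL2L11 on each array, in log2 units against the 75th percentile of the array. The DU145 array of genistein starts from control levels of 1.12 for BBC3 and 1.34 for BCL2L11, where the DU145 array of miR-145 starts from -1.12 and -0.54.

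BID, which caspase-8 cleaves to its active form, was called on 1 array. With miR-24 in PC3 its log2 ratio was 1.53, a 2.88-fold rise. A second BID probe gave 1.36 on the same array, and the probes differed by under 0.5 on all 24 arrays. On the other 23 arrays BID ran from -0.45 with genistein in PC3 to 0.92 with si-LAMB3 in SAS.

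BIK, a BH3-only protein of the endoplasmic reticulum membrane, was lowered by wogonin. The log2 ratio was -1.02 in SAS and -1.64 in FaDu, or 2.03-fold and 3.12-fold lower. Both lines moved down, and the FaDu value was the lowest of the 23 arrays on which BIK could be read. The mean of -1.33 (SE 0.19, n = 2), a 2.52-fold lower level, had an adjusted p of 0.0279 by limma, and 0.0668 without SAS or 0.0736 without FaDu. miR-23b lowered BIK in PC3 by 2.07-fold (log2 ratio -1.05). BIK was not called higher on any array, and its highest value was 0.57 with si-LAMB3 in SAS.

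Of the effectors, BAX was called by its brightest probe only with si-GOLM1. DU145 read -1.59 and PC3 -1.34 on the log2 scale, or 3.02-fold and 2.54-fold lower. The spots of this probe gave nearly 1 value, with an SD over spots of 0.04 on each array, but the other BAX probe gave -0.46 and -0.15. The files tie the probes to different BAX transcripts; the first lies at chr19:49464904-49464963 and the second at chr19:49464454-49464513 (hg19). The mean of the brighter probe, -1.47 (SE 0.34, n = 2), did not pass limma's test, with an adjusted p of 0.181, and passed at 0.0175 after normexp correction and at 0.0269 with all 24 arrays fitted together. On the other 22 arrays BAX ran from -0.94 with miR-27b in 786O to 0.29 with CXCL10 at 24 h. The dimmer probe read -1.01 with miR-23b in PC3, but its spots there had an SD of 0.82, and the brighter probe read -0.42.

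BAK1 was called with miR-23b in PC3, where its log2 ratio was 1.34, a 2.54-fold rise. It was lowest with miR-24 in the same line, at -0.82. With miR-145 it gave 0.89, 0.56 and 0.57 in PC3, DU145 and LNCap. These lay close together, and the mean of 0.67 (SE 0.13, n = 3), a 1.59-fold rise, had an adjusted p of 0.0235 by limma. The adjusted p was 0.177 without PC3, 0.0642 without LNCap and 0.0527 without DU145. With si-LAMB3 BAK1 was 0.47 in FaDu and 0.63 in SAS, and the mean of 0.55 had an adjusted p of 0.0685.

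Over treatments used in more than 1 line of a design, 5 means of the 10 genes passed limma's test at an adjusted p of 0.05, and 4 of these were miR-145. Of 9 genes tested with miR-145, 4 passed as higher and 0 as lower, beside 6.21% of all genes tested. At an unadjusted p under 0.05 there were 5 higher and 2 lower, BAX and BIK, where 24% of all genes met that p. Their median of mean log2 ratios was 0.67 against -0.05 over all genes. With wogonin, 1 of 10 fell, beside 1.46% of all genes, and the median was -0.21 against 0.06. With genistein 0 of 10 passed, beside 6.62%, and 2 of the 10 had an unadjusted p under 0.05, beside 26.3% of all genes. With si-LAMB3 0 of 10 passed, beside 7.8%. There 3 of the 10 were higher and 1, BAX, lower at an unadjusted p under 0.05, beside 26% of all genes, and the median was 0.46 against 0.03. In si-CAV2, miR-143, si-GOLM1 and miR-27b, 0 of the 10 passed, where 0.074%, 0.00706%, 0.0072% and 0.0141% of all genes did. The counts at an unadjusted p under 0.05 were 0 of 10, 2 of 10, 4 of 9 and 1 of 9, beside 4.24%, 15.8%, 19.6% and 15.4% of all genes. All miR-145 arrays lay on 1 slide, which also held genistein, si-CAV2 and miR-375. On that slide the means with si-CAV2, used in the renal lines, were 0.21 for BBC3, -0.17 for PMAIP1 and -0.27 for MCL1. With genistein they were 0.65, 1.02 and -0.22, and miR-375 in FaDu gave -1.63 for BBC3. The part of the slide was not tested. Without the miR-145 array of PC3, or without that of LNCap, 1 of the 5 calls was left, BIK with wogonin.

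The rest of the death pathway was read from lists of other family members, the apoptosome and caspases, the inhibitor of apoptosis (IAP) proteins, and upstream regulators. With miR-145, no apoptosome or caspase gene passed the test as lower. CASP8, the initiator caspase of death receptors, had log2 ratios between 1.05 and 1.12 in the 3 lines, with a mean of 1.08 (limma, adjusted p = 0.00278). None of 8 other family members, 7 IAP genes or 10 upstream genes passed with miR-145. ATF3, a stress-induced transcription factor, was past the limit in each of the 3 lines, from 1.10 to 3.84, and missed the test with a mean of 2.71 (limma, adjusted p = 0.0915).

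With genistein, 4 of 11 upstream genes rose and 0 fell, beside 6.62% of all genes that passed in either direction. The lists were chosen with earlier results of these data known, so the counts are a description. DDIT3 (CHOP), a transcription factor of the unfolded protein response, had a mean log2 ratio of 3.16 (limma, adjusted p = 0.0235), and TRIB3, one of its targets, 3.11 (adjusted p = 0.0238). CHAC1, which degrades glutathione, had 2.46 (adjusted p = 0.0429) and FOXO3, a transcription factor known to act on BCL2L11, 0.79 (adjusted p = 0.0428). Of 9 other family members, HRK, a BH3-only gene, rose with a mean of 2.11 (adjusted p = 0.045), and of 7 IAP genes XIAP rose with 0.66 (adjusted p = 0.0374). Without the PC3 array all 6 lost the call, with adjusted p from 0.0522 to 0.282, and without DU145 DDIT3, TRIB3 and CHAC1 kept it. None of the 10 apoptosome and caspase genes passed.

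With wogonin, CASP9, the initiator caspase of the apoptosome, fell with a mean of -1.39 (limma, adjusted p = 0.0213), the only one of 10 in its list. It lost the call without either array, at 0.127 without SAS and 0.0505 without FaDu. HRK was -2.42 in SAS and -1.66 in FaDu and missed the test (adjusted p = 0.0781). With si-LAMB3, CHAC1 had a mean of 2.43 (limma, adjusted p = 0.0409), the only one of 11 upstream genes, and lost the call without either array, at 0.101 and 0.339. No other combination of list and treatment held a call. Over all genes, 1.46% passed with wogonin and 7.8% with si-LAMB3.

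The treatments with 1 array have values but no test. Only list genes past the limit are named here. Of all genes, 23.9% were past it with miR-375, 28.3% with miR-24, 8.93% with miR-29a and 11% with miR-23b. With miR-375 and with miR-24, 0 of 10 apoptosome and caspase genes were past it. Of the upstream genes, 1 was higher and 5 lower of 10 with miR-375, and 3 higher and 1 lower of 9 with miR-24. With miR-375 in FaDu, where BBC3 was lowest, HRK was -2.52, DDIT3 -3.72, TRIB3 -3.37 and CHAC1 -3.01 on the log2 scale. The IAP genes NAIP and BIRC2 were -2.19 and -2.02, and BIRC5 (survivin) was 1.33. With miR-24 in PC3, ATF3 was 1.93 and E2F1 -1.68, beside BIRC3 at -1.92, HRK at 2.04, BAD at -1.53 and BMF at -1.44. With miR-29a in SAS, where PMAIP1 was 2.05, CHAC1 was 1.998, DDIT3 1.20 and ATF3 1.05, while BMF was -1.75 and BIRC2 -1.19. With miR-23b in PC3, APAF1, the scaffold of the apoptosome, was -1.58, beside BIRC3 at -1.48 and BIRC5 at 1.41.

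The level in control cells was compared between lines for each probe, as the log2 Cy3 signal against the 75th percentile of the array. By the labels the controls were non treatment, DMSO, control siRNA or control miRNA cells. These kinds differed within and between lines and are part of the spread. On the design of 16 arrays, 14 control samples of 7 lines were used, and 7 of the 10 genes differed between lines by limma's F-test, beside 67.2% of all genes tested. BIK differed the most, with an adjusted p of 1.09e-05. Its level was 2.83 ± 0.26 in FaDu (SD, n = 3), 1.34 ± 0.33 in SAS (n = 3) and 0.91 in LNCap (1 sample). It was -0.48 ± 0.33 in DU145 (n = 2) and -0.58 ± 0.63 in PC3 (n = 3), and -3.33 in A498 and -3.36 in 786O (1 sample each). The squamous lines were thus highest and the renal lines lowest. FaDu exceeded SAS by 1.49 (limma, adjusted p = 0.0093), while PC3 and DU145 differed by less than their spread. The others that passed were BID (adjusted p = 0.00296), BAX (0.00408), BCL2L1 (0.00438), BCL2 (0.0124), MCL1 (0.0246) and BBC3 (0.0267). BCL2L11, PMAIP1 and BAK1 did not, with adjusted p of 0.0954, 0.0938 and 0.24 by the F-test, which does not show that their levels were alike. BBC3 lost the call without any of the 3 PC3 samples or the A498 sample, at 0.0527 to 0.0834, and MCL1 without the DU145 sample of miR-145, at 0.115. BCL2L11 passed without either DU145 sample, at 0.00202 and 0.0022.

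Pairs were tested between lines with at least 2 control samples. Of all genes, 27.4% differed between PC3 and DU145, 39.7% between PC3 and FaDu and 37.9% between PC3 and SAS. The shares were 27.7% between DU145 and FaDu, 28.6% between DU145 and SAS and 25% between FaDu and SAS. On this design PC3 had the most BCL2L1, 0.95 above DU145 (limma, adjusted p = 0.0418), 1.72 above FaDu (0.000792) and 1.42 above SAS (0.00247). PC3 had less BID than DU145 on this design, with a difference of -1.83 (limma, adjusted p = 0.00566), and less BBC3 than FaDu, with -2.02 (0.0177). DU145 had more MCL1 than PC3, with PC3 minus DU145 at -1.14 (limma, adjusted p = 0.0155). FaDu exceeded SAS in BAX by 0.77 (limma, adjusted p = 0.0334).

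On the design of 8 arrays, 7 control samples of 4 lines were used and 3 of the 10 genes differed, beside 38% of all genes. MCL1 had an adjusted p of 0.00756, BCL2 of 0.0206 and BIK of 0.0237 by limma's F-test. The shares of all genes were 21.3% between PC3 and DU145, 23.6% between PC3 and 786O and 21.3% between DU145 and 786O. MCL1 was again higher in DU145 than in PC3, with PC3 minus DU145 at -1.81 (limma, adjusted p = 0.00748). For BID the same difference was 0.50 (adjusted p = 0.448), opposite in sign to that on the design of 16 arrays. For BCL2L1 it was 0.31 (adjusted p = 0.536), and the A498 control, at 0.998, read above the PC3 mean of 0.78. BIK was 3.81 higher in PC3 than in 786O (limma, adjusted p = 0.0293). The 786O controls for BIK read -4.10 with the control miRNA and -1.59 with no treatment. BBC3 did not pass (adjusted p = 0.175), and its 786O controls read -0.24 with the control miRNA and 3.14 with no treatment. Without either of the 786O samples BBC3 passed, at 0.00155 and 0.0033. Without either DU145 sample all 3 calls were lost, with adjusted p from 0.0725 to 0.112, and without either PC3 sample BCL2 and BIK were lost.

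**Figure D4:**
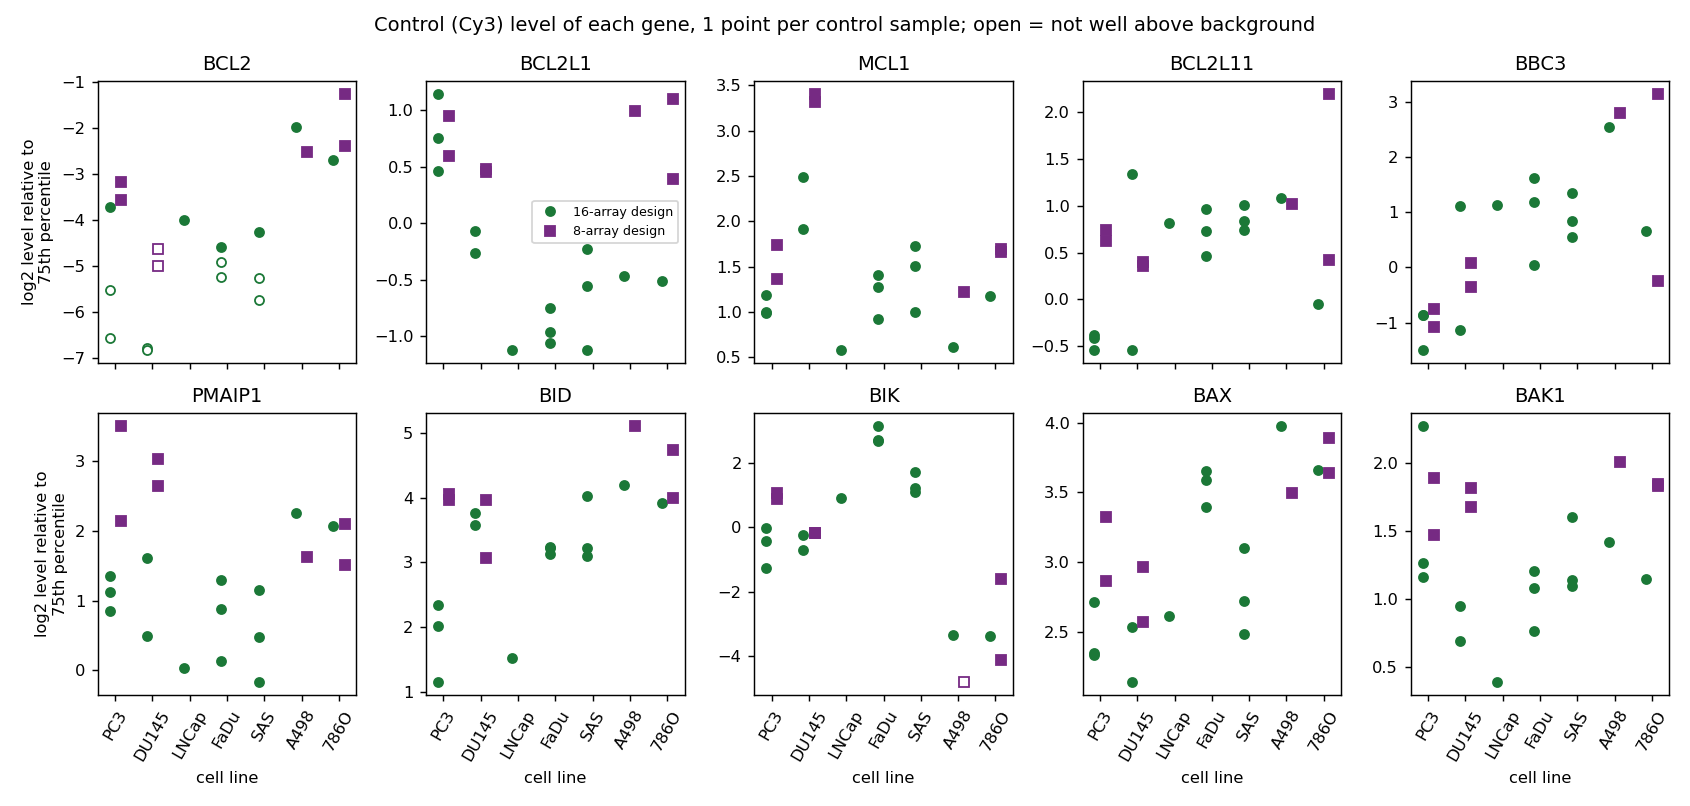
Level of each of the 10 genes in control cells by line, in log2 units of Cy3 signal against the 75th percentile of the array; points are control samples of both designs. BIK spans the widest range, from 2.83 on average in FaDu to -3.36 in 786O on the design of 16 arrays, and levels of different genes are not comparable.

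The genes whose log2 ratios ran most like a member over the 16 arrays of the first design were named by Pearson's r among 11681 genes read on all of them. These arrays share cell lines and possibly control RNA, so r is a description. For BBC3 they were CITED2 (r = 0.91), CASP5 (0.909) and PNRC1 (0.906). For PMAIP1 they were EHD4 (0.897), MAFF (0.888) and ZFAND2A (0.867), and for MCL1 TEP1 (0.909), SLC71A1 (0.89) and SPATS2L (0.883). For BCL2L11 they were UNC93B1 (0.815), RSRP1 (0.788) and ITIH4 (0.785), and for BIK SEC61A2 (0.852), BCAS2 (0.794) and CRLF3 (0.787). No gene stood among the leading 3 of more than 1 member.

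Promoters were read because BBC3, PMAIP1, MCL1 and BAK1 rose together with miR-145. RefSeq windows on GRCh38.p14, from 250 bases before to 50 after the start, were found for 8 of the 10 genes, 13 windows in all, and not for MCL1 or BIK. Motifs were searched on both strands. The CRE, TGACGTCA, was in 1.85% of 35116 promoters and in none of the 13, and the CHOP composite site, TGATGCAA, in 0.866% and in none. The FOXO core, GTAAACA, was in 3.42% of promoters and in 1 of the 13, that of BCL2L11, at position -223 from the start. The match is shown in capitals within 30 bases of its promoter, from the window chr2:111120664-111120963 (plus strand).
BCL2L11, FOXO core: gagttactccgGTAAACAcgccagggacgg
The 250 bases before the start are shown for the pair that rose most with miR-145, BBC3 from chr19:47232668-47232917 (minus strand) and PMAIP1 from chr18:59899746-59899995 (plus strand), with GC boxes (GGGCGG, on either strand) in capitals.
BBC3: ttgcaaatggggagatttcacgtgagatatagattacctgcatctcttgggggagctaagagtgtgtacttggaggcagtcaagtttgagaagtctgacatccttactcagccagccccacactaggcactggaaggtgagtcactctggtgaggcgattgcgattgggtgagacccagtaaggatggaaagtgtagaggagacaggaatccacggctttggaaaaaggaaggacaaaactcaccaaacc
PMAIP1: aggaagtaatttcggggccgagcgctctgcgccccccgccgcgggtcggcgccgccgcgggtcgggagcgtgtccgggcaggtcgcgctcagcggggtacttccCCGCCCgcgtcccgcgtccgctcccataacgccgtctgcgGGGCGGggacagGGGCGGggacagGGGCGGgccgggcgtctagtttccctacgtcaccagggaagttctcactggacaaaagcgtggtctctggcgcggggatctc
The GC box was in 45% of all promoters and in 9 of the 13 windows. These came from 6 of the 8 genes, BID with more than 1 window. The BBC3 stretch held none and had a GC content of 49.2%, while that of PMAIP1 held 4 and had 72.8%, beside a median of 58% over all promoters.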

How the data were processed

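Total RNA of the cell lines was labelled in 2 colours and hybridised to Agilent human expression arrays (24 arrays, 62976 spots each). The authors deposited 1 scanner file per array, made with Feature Extraction 10.7.3.1 (Agilent) by the submitters' processing notes, whose dye-normalised log10 ratio of Cy5 over Cy3 was turned into log2. The deposited processed intensity of each channel gave levels. A value table deposited with the arrays held the same log ratios. Control spots and outliers were left out, spots of a probe were averaged, and each gene was read by its brightest probe. Probes are hg19 in the file headers.

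R 4.3.3 and limma 3.58.1 were used. Treatments with 2 or 3 lines on a design were fitted as means against 0, and control levels by line, with Benjamini-Hochberg adjustment over all genes tested at 0.05. Arrays sharing line, control and slide counted as 1 control sample. All 10 genes are named; of the lists, up to 3 genes called on every array of a treatment, the largest first, and for a gene called on at least 2 arrays the 3 most correlated genes. CHAC1, FOXO3 and XIAP with genistein fell outside this rule and were named, after their values were seen, because they passed the test. The genes and lists were chosen with earlier results of these data known. On simulated data the miR-145 test recovered 55 of 100 genes changed by 1 in log2 and 90 of 100 changed by 2. It made 7 false calls among 17481 genes. The control-level test recovered 2 of 100 genes changed by 1 in PC3 on the design of 16 arrays. On the design of 8 arrays it recovered 0 of 100. Changed by 3, 85 and 61 of 100 were recovered. Each of these runs changed 100 genes at each size, among 15804 to 17481 genes. In the data, 6.21% of genes tested passed with miR-145. For control levels, 67.2% passed on the design of 16 arrays and 38% on the design of 8 arrays. Recovery at such shares was not tested. A gene that did not pass may still differ between lines. Alternatives covered background correction, centring, probe choice, filters, dye bias, the call limit, the arrays fitted, control normalisation, slide as a block and each array or control sample left out. Some genes and motifs of the lists are not reported here.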

Additional observations from a re-analysis of the deposited data

Results flagged for a closer look

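In 3 cases a gene moved in opposite directions in the cell lines given the same treatment, each by at least 0.5 on the log2 scale. BBC3 with genistein was 2.75 higher in PC3 than in DU145 (2.03 and -0.73). BCL2L11 with genistein was 2.05 higher in PC3 than in DU145 (0.87 and -1.19), by its brightest probe. PMAIP1 with wogonin was 1.78 higher in SAS than in FaDu (0.58 and -1.20). Each line had 1 array per treatment, so the difference was not tested.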

How the results depend on the processing

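None of the 39 called values and means changed direction under an alternative in which it was tested. Some alternatives could not change it: median centring and the deposited value table gave the same ratios. The filters on signal changed only which values were read. For control levels the calls were compared between settings, not the direction. Of the 34 calls on single arrays, a limit of 0.5 in place of 1 gave 76, and the other settings gave 25 to 34, with 27 of 227 values where both channels had to be above background. With the mean over other treatments of the design subtracted, 11 of the 39 called values and means fell short, all on single arrays, 4 of them BCL2 and 3 PMAIP1. The 5 calls over cell lines became 8 with normexp and loess and 8 with all 24 arrays in 1 fit. The calls added by normexp included BAX (adjusted p = 0.0175) with si-GOLM1 and BCL2L11 (0.00816) with miR-27b, and across all genes that setting raised the calls from 1 to 1083 for si-GOLM1, 2 to 647 for miR-27b, 1 to 562 for miR-143, 928 to 1917 for genistein, 798 to 1249 for miR-145 and 198 to 391 for wogonin. With all 24 arrays in 1 fit they came to 2239 for genistein, 1826 for miR-145, 2219 for si-LAMB3 in place of 1058, and 1050 for wogonin. The causes were not tested. Leaving out 1 array gave 1 to 5 calls over cell lines, and leaving out 1 control sample gave 7 to 12 calls of control level in place of 10. Leaving out arrays of treatments with 2 lines was chosen after seeing the data. Where 1 array was left, it was assumed to vary like the other treatments. Each log2 ratio paired treated with control RNA of 1 line on 1 array, and the tests over lines used these ratios. No further pairing was possible because the labels give no replicate numbers and each line has 1 array per treatment. Dim control signals limit BCL2 to bounds, which rest on the background subtraction, and levels of different probes cannot be compared.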
